A study of Homo sapiens with 6 samples.

Results

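Glucose uptake and glycolysis were followed through 10 genes, the transporter SLC2A1 and the enzymes HK1, HK2, PFKP, ALDOA, GAPDH, PGK1, ENO1, PKM and LDHA. The genes were chosen by name as glucose transporter and glycolytic enzyme genes, and all 10 were found among the 19198 genes of the expression table. RNA-Seq was performed on MCF10A, an established line of non-tumorigenic human breast epithelial cells, in 6 samples. The comparison addresses how gene expression differs when growth factors are withdrawn, a treatment used in the study as a model of epithelial-mesenchymal transition (EMT) without added TGFβ. The 3 control samples were MCF10A cells in DMEM:F12 with 5% horse serum, 10 µg/ml insulin, 20 ng/ml EGF, 100 ng/ml cholera toxin and 0.5 µg/ml hydrocortisone. The 3 depleted samples were MCF10A cells in DMEM:F12 with 5% horse serum and none of these 4 additions. By the sample labels both media held glutamine and antibiotics, while the methods of the study name no glutamine for the depletion medium. The horse serum, which carries growth factors of its own, was present in both groups. The number of days without growth factors is not given for the sequenced samples. The labels do not say that the replicates were separate cultures, and the series description states 2 replicates per sample although 3 per condition are labelled, so p-values and SDs with n = 3 rest on the labels and measure only the spread between these samples.

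Glucose enters mammary epithelial cells mainly through facilitative transporters of the SLC2A (GLUT) family, is trapped by hexokinase as glucose 6-phosphate, committed to glycolysis by phosphofructokinase and split by aldolase. The lower steps, from GAPDH through PGK1, ENO1 and PKM, yield ATP and pyruvate, which LDHA reduces to lactate. Insulin and EGF are known to raise glucose uptake and glycolytic flux through PI3K-AKT signalling, MYC and hypoxia-inducible factor (HIF), although much of this control acts on protein activity and location, which mRNA levels do not measure.

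The samples held between 7472418 (depleted replicate 3) and 28672630 (control replicate 2) reads on genes. Values are normalized counts, that is reads per gene divided by a size factor of the sample, and 3 reads, taken as the floor of detection, correspond to 1.76 to 6.71 normalized counts for counting error only. The epithelial markers KRT8 and KRT18 were at 1716 normalized counts or more in every sample, while other epithelial markers were low in depleted replicate 1, as given below. The labels also name luminal ductal cells, while the hormone receptor ESR1 was at 63.9 to 205.5 normalized counts in controls and 4.58 to 32.8 in depleted samples. In controls the luminal factors GATA3 and FOXA1 were at 231.4 to 1013 and 180.0 to 284.7, and the basal keratins KRT5 and KRT14 at 12739 to 38503 and 12.8 to 264.4. Depleted replicate 1 stood apart from the other depleted samples, with KRT5 at 562.0 against 10908 and 14997 and CDH1 (E-cadherin) at 609.6 against 13234 and 13118. EPCAM was at 152.9 there against 2281 and 2486, and TP63 at 8.24 against 64.9 and 42.5. By the calling rule given below, which called 6.33% of all genes, 6 of 7 fibroblast and mesenchymal markers rose and none fell. Here and in what follows, rose and fell mean called up and called down. The summed level of the 7 markers went from 225.0 to 451.2 in controls to 9950 to 33375 in depleted samples. DCN was not called, though all its depleted samples were above all controls. Of 8 mammary epithelial markers 1 fell (TP63), with a summed level of 38523 to 85406 in controls and 37963 to 183171 in depleted samples. KRT17 made up much of the depleted sum. It was at 9703, 16142 and 5882 in controls and at 19236, 61385 and 123480 in depleted samples, and was not called. Of 3 tested endothelial markers 1 rose (CDH5), with a sum of 167.2 to 1787 in controls and 265.0 to 1610 in depleted samples, KDR being at 0 in depleted replicate 1. Of the leukocyte markers CD14 was not called, and PTPRC was at 0 to 1.97 in controls and 10.1 to 13.8 in depleted samples. The part of these marker differences in the results below was not tested, and in bulk RNA fewer cells of a type and less RNA per cell cannot be told apart.

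SLC2A1 and PKM were the members with a positive fold change, PGK1 and LDHA are 2 of the 8 with a negative one, and ENO2 is a neighbouring enolase gene that rose. Their promoters, a choice that followed these fold changes, are shown as the 250 bases before the RefSeq start on GRCh38.p14, 5′ to 3′ on the strand of the gene. Capitals mark the HIF core motifs ACGTG and GCGTG read on either strand, so that CACGT and CACGC are the same motifs on the other strand, and the palindrome CACGTG, an E-box, holds ACGTG on both strands. The windows are chr1:42958869-42959118 (minus strand) for SLC2A1, chr15:72231191-72231440 (minus strand) for PKM, chrX:78103998-78104247 (plus strand) for PGK1, chr11:18394313-18394562 (plus strand) for LDHA and chr12:6914330-6914579 (plus strand) for ENO2.
SLC2A1: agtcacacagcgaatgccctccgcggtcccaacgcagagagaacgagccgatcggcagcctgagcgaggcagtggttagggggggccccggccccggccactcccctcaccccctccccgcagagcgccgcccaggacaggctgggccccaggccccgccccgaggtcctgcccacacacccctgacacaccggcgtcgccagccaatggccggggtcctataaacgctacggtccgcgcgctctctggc
PKM: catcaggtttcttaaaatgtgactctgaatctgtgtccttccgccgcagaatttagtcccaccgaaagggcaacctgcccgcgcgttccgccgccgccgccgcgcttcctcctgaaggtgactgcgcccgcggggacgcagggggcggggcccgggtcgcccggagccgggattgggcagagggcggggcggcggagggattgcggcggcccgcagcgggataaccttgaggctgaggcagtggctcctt
PGK1: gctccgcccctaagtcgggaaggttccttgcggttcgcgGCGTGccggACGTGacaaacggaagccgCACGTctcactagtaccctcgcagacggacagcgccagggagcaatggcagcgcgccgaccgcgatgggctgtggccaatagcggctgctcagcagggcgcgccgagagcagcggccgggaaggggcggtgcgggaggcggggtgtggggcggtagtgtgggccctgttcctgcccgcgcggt
LDHA: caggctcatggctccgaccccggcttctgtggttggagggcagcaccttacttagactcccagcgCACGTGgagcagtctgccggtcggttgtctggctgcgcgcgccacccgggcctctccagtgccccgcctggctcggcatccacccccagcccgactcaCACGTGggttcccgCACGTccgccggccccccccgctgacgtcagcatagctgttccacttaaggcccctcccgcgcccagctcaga
ENO2: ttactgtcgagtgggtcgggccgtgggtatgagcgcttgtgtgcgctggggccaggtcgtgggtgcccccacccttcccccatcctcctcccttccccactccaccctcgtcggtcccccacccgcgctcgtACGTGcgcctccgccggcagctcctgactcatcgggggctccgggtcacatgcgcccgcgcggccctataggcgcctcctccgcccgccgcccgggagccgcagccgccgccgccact
The SLC2A1 and PKM windows held no core motif, PGK1 held 3, LDHA held 5 counting both strands, 2 of its stretches being E-boxes, and ENO2 held 1. Either core was found in the windows of 6 of the 10 members (HK2, ALDOA, GAPDH, PGK1, ENO1 and LDHA) and in 43.1% of the 27305 RefSeq promoters of the same length. For each gene only the first listed promoter was used, so other starts of a gene were not searched. The E-box was found in GAPDH and LDHA and in 6.5% of all promoters. A match to these letters is not a binding site and the absence of a match in SLC2A1, HK1, PFKP and PKM concerns this window alone. HK1 and PFKP had no core and a negative fold change, and a relation of motif to direction was not tested.

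No member was called after growth factor depletion (0 of 10) by limma which required 2-fold or more and p under 0.05 after Benjamini-Hochberg adjustment, a rule that called 6.33% of the 16988 genes tested. edgeR also called 0 members against 5.72% of all genes, and DESeq2 called 0 against 12.4%. At an unadjusted limma p under 0.05, 1 member passed (SLC2A1), where 20.0% of all genes did. The log2 change was positive for 2 members and negative for 8, with a median of -0.34, where 8809 of the 16988 genes were negative with a median of -0.03. In 1 member (SLC2A1) all 3 depleted samples exceeded all 3 controls, which held for 13.5% of all genes, and in 0 members were all 3 below, which held for 12.1%. The counts of calls and of groups that did not overlap were no higher among the members than the share over all genes.

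**Figure D1:**
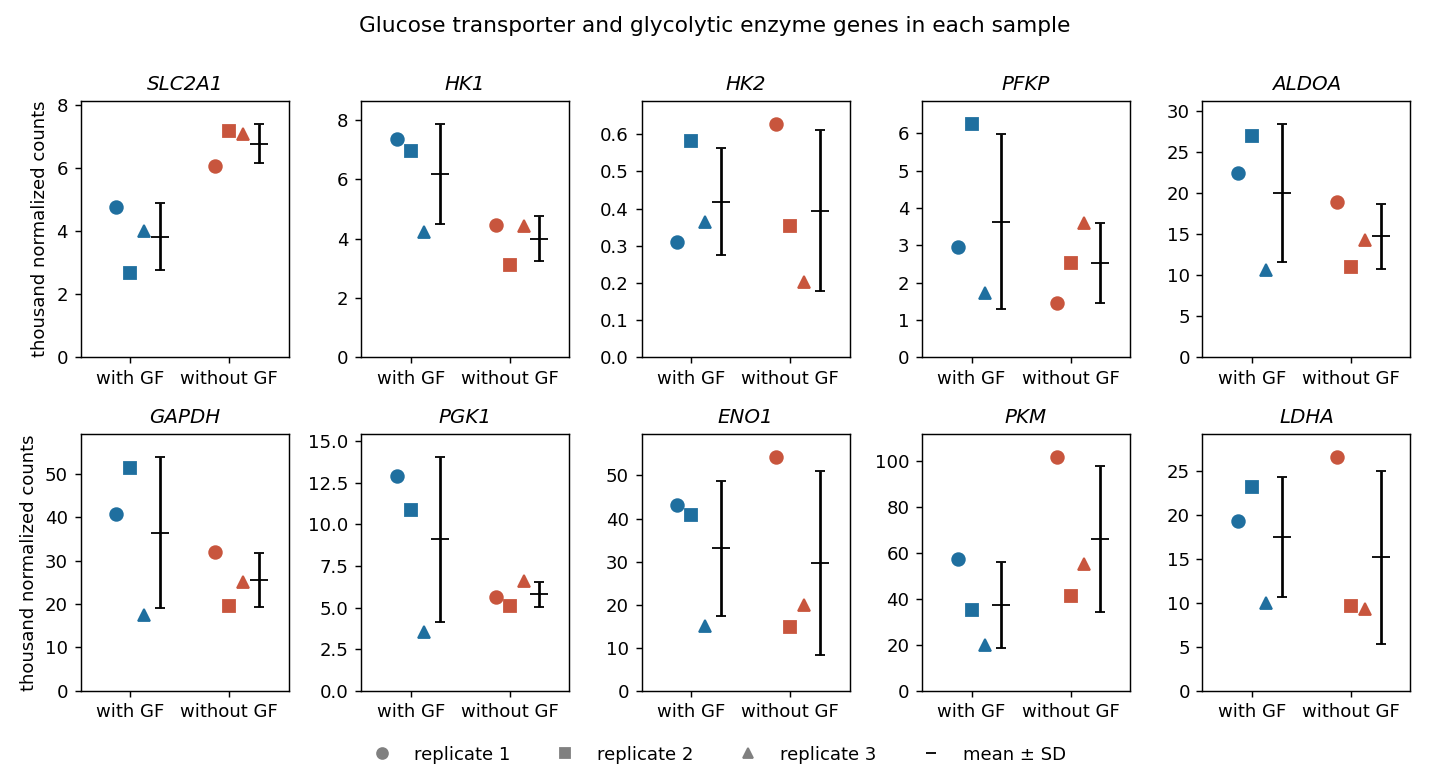
Normalized counts (axis divided by 1000) of the 10 genes in each sample, with growth factors (GF) in blue and without in red, the marker shape giving the replicate and the bars the mean ± SD (n = 3). The groups are separate for SLC2A1 alone (2671 to 4761 with and 6044 to 7171 without growth factors), and control replicate 3 is the lowest control for 8 of the 10 genes.

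SLC2A1 encodes GLUT1, the main basal glucose transporter of proliferating cells, and lies at chr1:42925353-42958893 on the minus strand (hg38, Gencode v44). It was at 4761, 2671 and 3998 normalized counts in control replicates 1 to 3 and at 6044, 7171 and 7077 in depleted replicates 1 to 3. All 3 depleted samples were above all 3 controls, and the controls spread more widely than the depleted samples. The mean was 3810 ± 1058 (SD, n = 3) with and 6764 ± 625.4 without growth factors, a log2 change of 0.86 ± 0.32 (SE) with a 95% interval from 0.14 to 1.59. The limma p was 0.025 and the Benjamini-Hochberg adjusted p 0.168, so the difference did not pass the test across all genes. Omitting single samples gave log2 changes from 0.63 to 1.05.

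HK1 and HK2 encode the hexokinases that phosphorylate glucose, HK1 being the widely expressed form and HK2 the form that insulin and HIF are known to induce. HK1 (chr10:69269984-69401884) was at 7352, 6939 and 4232 normalized counts in controls and at 4456, 3126 and 4414 in depleted samples. Of the controls only replicate 3 lay within the range of the depleted samples, and the log2 change of -0.60 ± 0.34 (SE) had a limma adjusted p of 0.374. HK2 (chr2:74834127-74893359) was at 310.8, 582.3 and 363.0 in controls and at 627.9, 352.7 and 201.2 in depleted samples. The depleted samples of HK2 spanned the whole range of the controls, with a log2 change of -0.19 ± 0.46 (adjusted p in limma = 0.877). Shares of isoenzymes, here and below, use normalized counts per kilobase of the Gencode canonical transcript. Log2 ratios use normalized counts not divided by length. HK1 made up 94.8% to 97.4% of the sum of both hexokinases in controls and 91.7% to 97.2% in depleted samples. The log2 ratio of HK2 to HK1 was -3.89 ± 0.58 (SD, n = 3) with and -3.47 ± 0.86 without growth factors, and the difference of 0.42 was within the spread (exact two-sided permutation p = 0.5, where 3 against 3 samples allow no p below 0.1). Omitting single samples moved this difference between 0.08 and 0.91.

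PFKP encodes the platelet-type phosphofructokinase, one of 3 isoenzymes of the committed step, and lies at chr10:3066333-3137718. It was at 2943, 6250 and 1709 normalized counts in controls and at 1465, 2537 and 3607 in depleted samples. The controls differed 3.66-fold among themselves and the groups overlapped, with a log2 change of -0.41 ± 0.52 (SE, adjusted p in limma = 0.730). PFKL, the liver-type isoenzyme, was set against PFKP in normalized counts per kilobase. It took 25.9% to 47.6% of their sum in controls and 28.9% to 49.4% in depleted samples. The log2 ratio of PFKP to PFKL was 0.73 ± 0.69 with and 0.70 ± 0.71 without growth factors (SD, n = 3, exact permutation p = 1.0).

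ALDOA encodes aldolase A, which splits fructose 1,6-bisphosphate, and lies at chr16:30064164-30070457. It was at 22481, 26959 and 10657 normalized counts in controls and at 18899, 10995 and 14323 in depleted samples. The depleted samples lay between the lowest and the highest control, with a log2 change of -0.37 ± 0.46 (SE, adjusted p in limma = 0.727). Within each sample the log2 ratio of ALDOA to ALDOC, a second aldolase gene, was 6.12 ± 0.15 (SD, n = 3) with and 7.06 ± 0.43 without growth factors. All 3 depleted samples were above all 3 controls in this ratio, by 0.95 on average (exact permutation p = 0.1, the smallest possible, and 0.2 after adjustment over 6 ratios).

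GAPDH, the enzyme that yields NADH and a gene often used as a loading reference, lies at chr12:6534512-6538374. It was at 40703, 51434 and 17451 normalized counts in controls and at 32114, 19562 and 25157 in depleted samples. The controls spread 2.95-fold, more than the depleted samples (1.64-fold), and enclosed all of them. The log2 change was -0.40 ± 0.53 (SE, limma adjusted p = 0.740), with a 95% interval from -1.61 to 0.80. PGK1, phosphoglycerate kinase and the first step of the pathway to yield ATP (chrX:77910739-78129295), was at 12922, 10849 and 3515 in controls and at 5635, 5122 and 6614 in depleted samples. Control replicates 1 and 2 were above all depleted samples and control replicate 3 below all of them, a 3.68-fold spread among controls. The log2 change of PGK1 was -0.46 ± 0.50 (adjusted p in limma = 0.685).

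ENO1 encodes the ubiquitous enolase and lies at chr1:8861000-8879190. It was at 43206, 40814 and 15104 normalized counts in controls and at 54224, 14873 and 19862 in depleted samples. Depleted replicate 1 was the highest of all 6 samples and depleted replicate 2 the lowest, and the log2 change of -0.24 ± 0.64 (SE) had a limma adjusted p of 0.884. PKM, pyruvate kinase of muscle and most proliferating tissues (chr15:72199029-72231819), was at 57305, 35245 and 19804 in controls and at 101792, 41210 and 55418 in depleted samples. Depleted replicate 1 was the highest of the 6, while control replicate 1 was above the other 2 depleted samples. The log2 change of PKM was 0.85 ± 0.60, close to that of SLC2A1 but with a wider 95% interval from -0.53 to 2.22 (adjusted p in limma = 0.505). Counts per gene do not separate the M1 and M2 splice forms of PKM.

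LDHA, which converts pyruvate to lactate, lies at chr11:18394560-18408425. It was at 19280, 23262 and 9952 normalized counts in controls and at 26589, 9590 and 9362 in depleted samples. Depleted replicate 1 was above every control and the other 2 depleted samples below every control, with a log2 change of -0.30 ± 0.54 (SE, adjusted p in limma = 0.820). LDHB, the form that favours pyruvate formation, was set against LDHA in normalized counts per kilobase. It took 34.1% to 50.3% of their sum in controls and 27.4% to 46.3% in depleted samples. The log2 ratio of LDHA to LDHB was 1.21 ± 0.49 with and 1.49 ± 0.62 without growth factors (SD, n = 3, exact permutation p = 0.6).

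**Figure D2:**
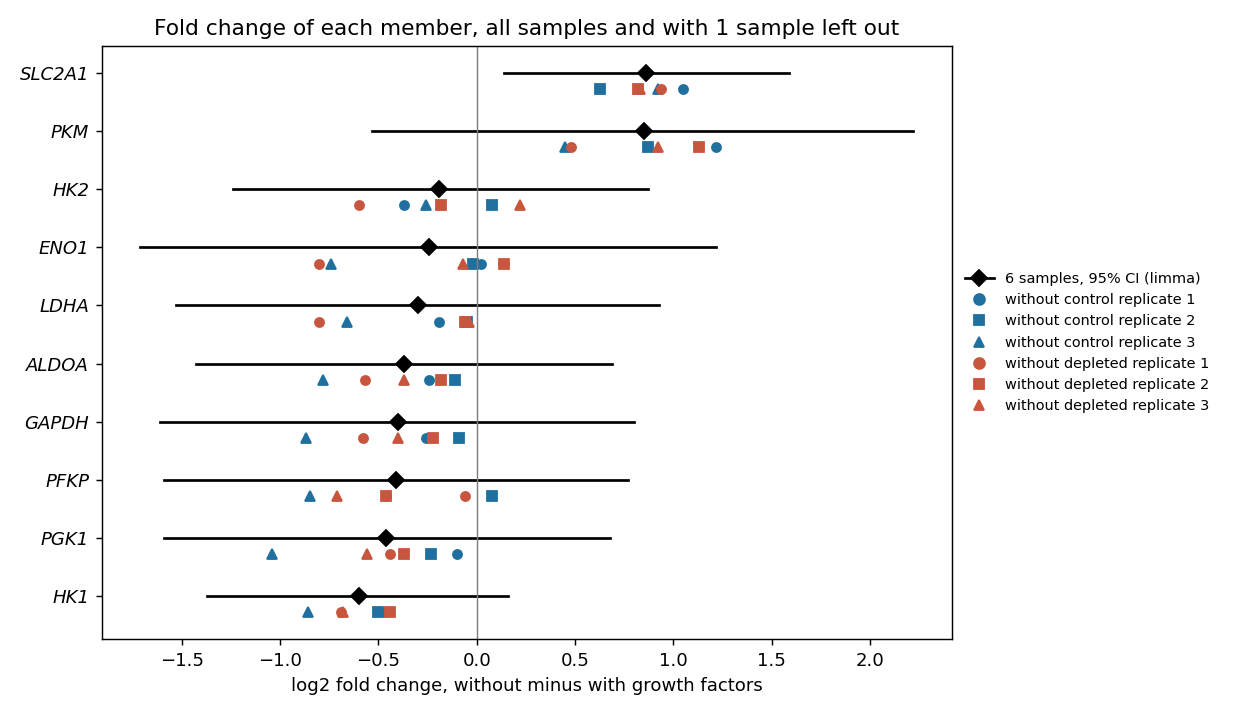
Log2 fold change (without minus with growth factors) of each of the 10 genes with the 95% interval of limma over 6 samples (black) and with each sample left out in turn (coloured markers). SLC2A1 has the only interval above 0 (0.14 to 1.59), while PGK1 moves from -0.46 to -1.04 without control replicate 3.

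Most members were high or low in the same samples. Control replicate 3 was the lowest control for 8 of the 10 members, and depleted replicate 1 was the highest depleted sample for 7. The members' mean log2 level, centred on each gene's mean over all samples, was 0.36, 0.45 and -0.62 in control replicates 1 to 3 and 0.31, -0.35 and -0.14 in depleted replicates 1 to 3. The 10 genes took 1.16%, 1.22% and 0.575% of all normalized counts in controls and 1.61%, 0.716% and 0.874% in depleted samples. The mean share was 0.986% ± 0.357 with and 1.07% ± 0.48 without growth factors (SD, n = 3, exact two-sided permutation p = 0.9). In control replicate 3, genes with long transcripts were high and short ones low. The Spearman correlation between transcript length and deviation was 0.342 across 13035 genes, which are not independent replicates, against -0.107 and -0.359 in control replicates 1 and 2. It was also positive in depleted replicate 2 (0.250), the lowest depleted sample for 6 members, and was -0.00365 and -0.159 in depleted replicates 1 and 3. For GC content the correlation ran from -0.327 (control replicate 1) to 0.222 (depleted replicate 1). The members' median transcript length was 2466 bases against 3152 for genes with a mean of at least 50. After correction for length and GC content their centred mean in control replicate 3 was -0.49. The spread among controls (SD on the log2 scale) became smaller for 6 of the 10 members, and its median over the members went from 0.74 to 0.58. That of SLC2A1 went from 0.43 to 0.48, of HK1 from 0.44 to 0.49 and of HK2 from 0.47 to 0.56.

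Leaving out control replicate 3, 1 member was called, PGK1, with a log2 change of -1.04 (adjusted p in limma = 0.043), while the same rule then called 14.6% of all genes. Without control replicate 3 and depleted replicate 1, a pair chosen after the data were seen, 3 members were called against 19.1% of all genes. These were ENO1 with a log2 change of -1.29 (adjusted p in limma = 0.0371), PGK1 with -1.02 (0.0473) and LDHA with -1.16 (0.0335). The calls of these 3 enzymes thus depended on the samples used. PKM, at 0.85 over 6 samples, was at 0.09 without this pair. Over all alternatives SLC2A1 and PKM kept a positive log2 change and HK1, ALDOA, GAPDH, PGK1 and LDHA a negative one. With single samples omitted, however, ALDOA ranged from -0.78 to -0.11, GAPDH from -0.87 to -0.09, PGK1 from -1.04 to -0.10 and LDHA from -0.80 to -0.04, PKM ranged from 0.45 to 1.22, and ENO1, HK2 and PFKP changed sign when certain single samples were omitted.

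A comparison that does not depend on the level of the pathway as a whole sets each member against the mean of the other 9 within the same sample, a measure chosen after the data were seen. The log2 level of PKM over the others was 2.70, 1.82 and 2.09 in controls and 3.68, 2.97 and 3.21 in depleted samples. All depleted samples of PKM were above all controls, by 1.08 on average (exact permutation p = 0.1, the smallest possible, and 0.333 adjusted over 10 members). SLC2A1 differed by 1.1 with overlapping groups (exact permutation p = 0.2). HK1 differed by -0.53 and ALDOA by -0.27, with all depleted samples below all controls for both (exact permutation p = 0.1, adjusted 0.333). Within a sample these relative levels cancel out over the 10 members by construction. They are therefore tied and not separate results, since a higher PKM or SLC2A1 lowers the relative level of the others. In their own levels the groups of PKM, HK1 and ALDOA overlapped. How many of all genes would separate on this measure was not tested. For the other 6 members the exact permutation p was 0.2 to 0.8.

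The enzymes of the lower steps, with ALDOA and LDHA, had the highest levels per length, apart from PGK1. In normalized counts per kilobase of the Gencode canonical transcript, GAPDH was highest in controls (28427), followed by ENO1 (18552), PKM (16248), ALDOA (12215) and LDHA (7808). PGK1 (1890), HK1 (1714), PFKP (1384) and SLC2A1 (1126) were lower, and HK2 was lowest (74.4). In depleted samples PKM was highest (28694 per kilobase), above GAPDH (19931) and ENO1 (16650). In controls, neighbours in this order differed by less than the larger SD of the pair, apart from the steps from LDHA to PGK1 and from SLC2A1 to HK2. By this measure over all samples GAPDH ranked 10, PKM 12 and ENO1 18 among protein-coding genes, and HK2 ranked 9013.

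Processed pseudogenes, intronless copies of an mRNA, share reads with some members and were listed as genes of their own. The 10 GAPDH copies summed to 16.5% to 24.9% of the GAPDH level in each sample, the 5 LDHA copies to 11.3% to 16.0% and the 2 PGK1 copies to 7.70% to 11.2%. Adding the copies left the log2 change of GAPDH at -0.39, of LDHA at -0.28, of PGK1 at -0.46 and of PKM at 0.85. In Gencode v44 PGK1 also overlaps ATP7A on the same strand, so the reads of PGK1 are uncertain to that extent.

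The genes around the 10 members were read from 10 lists of 102 genes, of which 82 were tested. Of these, 2 rose (SLC2A3 and ENO2) and 4 fell (PYGB, PC, ARRDC4 and CA12), 6 of 82 beside 6.33% over all genes, with a median log2 change of -0.21. The same 6.33% is the share to set beside the main count of calls in each list below. At an unadjusted limma p under 0.05, 25 of the 82 passed, beside 20.0% of all genes. In 7 of the 82 every depleted sample was above every control and in 16 every one was below, beside 13.5% and 12.1% of all genes.

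**Figure D3:**
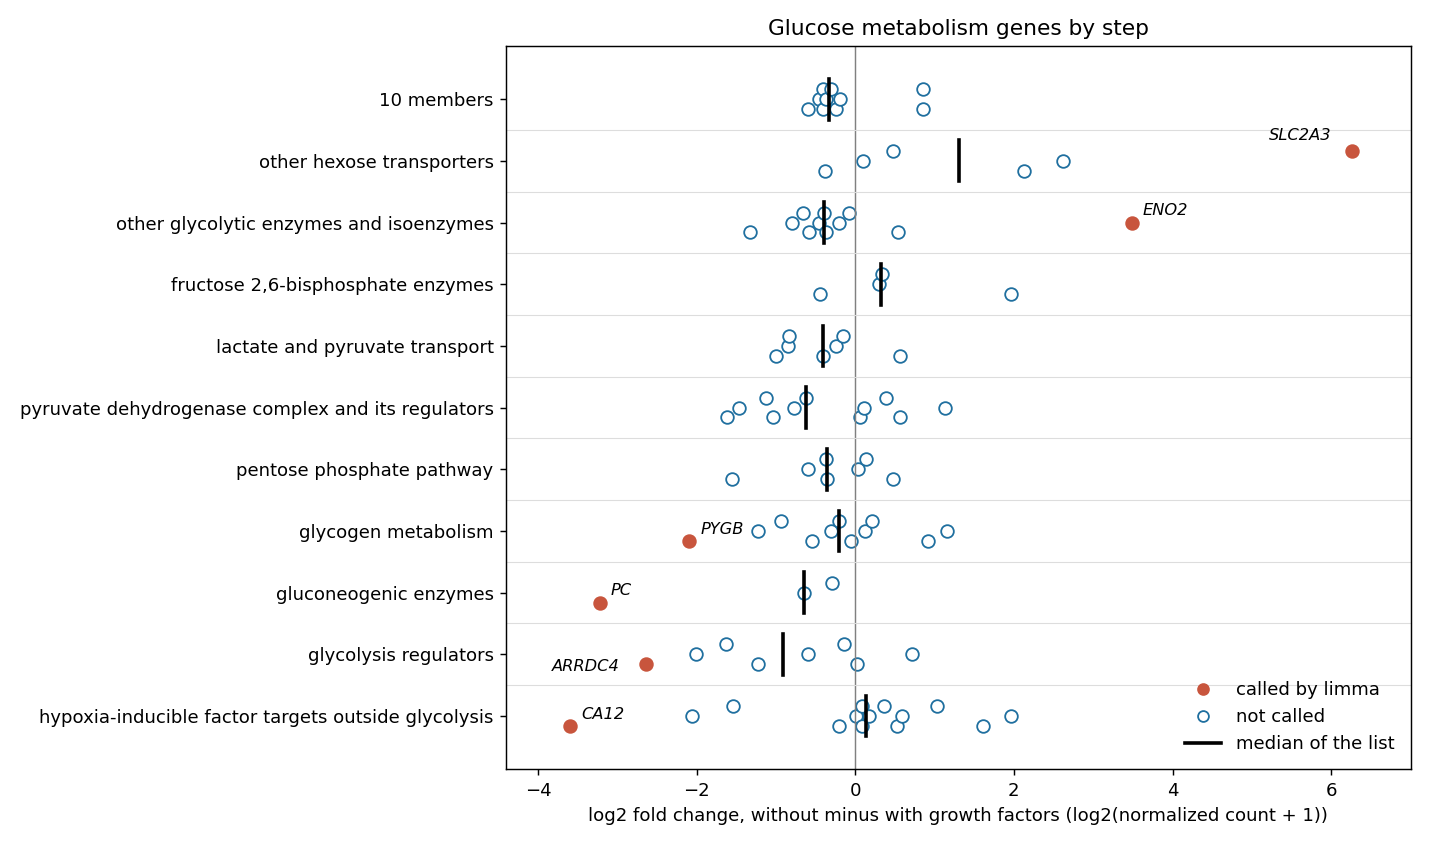
Log2 fold change (without minus with growth factors) of the 10 members and of the tested genes of 10 lists of neighbouring steps, 1 point per gene, with genes called by limma filled and the median of each list as a black bar. The 6 filled points are SLC2A3 and ENO2 to the right and PYGB, PC, ARRDC4 and CA12 to the left, and no member is filled.

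Among the other hexose transporters, 1 of 6 tested genes rose and none fell, beside 6.33% of all genes called. SLC2A3, which encodes the high-affinity transporter GLUT3, was at 1.25, 0 and 0 normalized counts in controls, under the floor of 3 reads, and at 127.2, 84.6 and 91.7 in depleted samples. Depleted samples were thus at least 35.8-fold higher, taking the mean of the 3 control floors as the bound (adjusted p in limma = 0.00151). Its near-identical copy SLC2A14 is not analysed here, so reads shared by both are uncertain. Against SLC2A1, SLC2A3 stayed a minor transcript, at 1.03% to 1.83% of the sum of both per kilobase in depleted samples. SLC2A12 was at 749.4, 97.8 and 100.3 in controls and at 183.1, 3052 and 3112 in depleted samples. Depleted replicate 1 lay below control replicate 1, and the log2 change was 2.62 ± 1.17 (SE, adjusted p in limma = 0.262). SLC2A6, a transporter of internal membranes, was at 8.77, 17.6 and 18.7 in controls and at 52.2, 66.9 and 82.7 in depleted samples, and its log2 change of 2.13 ± 0.53 (SE) missed the threshold (adjusted p in limma = 0.0506, or 0.0378 after the length and GC correction).

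Among the other glycolytic enzymes and isoenzymes, 1 of 11 tested genes rose and none fell, and 9 of the 11 log2 changes were negative. ENO2, the enolase known from neurons, was at 7.52, 17.0 and 43.3 normalized counts in controls and at 278.2, 198.0 and 172.2 in depleted samples. The groups were far apart, with a log2 change of 3.49 ± 0.63 (SE, adjusted p in limma = 0.0151). ENO2 nonetheless made up at most 1.02% of the sum of ENO1 and ENO2 per kilobase. The log2 ratio of ENO1 to ENO2 was 10.6 ± 2.0 with and 6.89 ± 0.69 without growth factors (SD, n = 3, exact permutation p = 0.1, adjusted 0.2). GPI, TPI1 and PGAM1, which fill steps between the members, and ADPGK, an ADP-dependent glucokinase of the hexokinase step, had log2 changes of -0.80, -0.37, -0.08 and -0.46, with limma adjusted p-values of 0.331 to 0.952.

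No gene was called among 4 tested enzymes of fructose 2,6-bisphosphate, the activator of phosphofructokinase. PFKFB3, which makes this activator and had the largest mean of the list, was at 330.9, 352.1 and 608.9 normalized counts in controls and at 3435, 1062 and 1156 in depleted samples. All depleted samples were above all controls, with a log2 change of 1.96 ± 0.49 (SE, adjusted p in limma = 0.0517). None of 7 lactate and pyruvate transport genes was called. BSG, the chaperone of the monocarboxylate transporters, had a log2 change of -0.15 (adjusted p in limma = 0.867), while the lactate transporters SLC16A1 and SLC16A3 had -0.83 and -0.85 (adjusted p in limma = 0.154 and 0.279).

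Pyruvate dehydrogenase, which passes pyruvate to the citric acid cycle, had 0 of 11 genes called. At an unadjusted limma p under 0.05, 4 of the 11 passed, beside 20.0% of all genes. Leaving out control replicate 3, 6 of the 11 were called, beside 14.6% of all genes, and DESeq2 called 3, beside 12.4%. DLD, its dihydrolipoamide dehydrogenase subunit, was at 6192, 4672 and 2416 normalized counts in controls and at 1397, 1596 and 1494 in depleted samples. Every depleted sample of DLD was below every control, with a log2 change of -1.46 ± 0.37 (SE, adjusted p in limma = 0.0553, or 0.0337 after the length and GC correction). None of 7 pentose phosphate genes was called, and TKT (transketolase) was at 20330, 20608 and 12020 in controls and at 10330, 3856 and 5047 in depleted samples, a log2 change of -1.55 ± 0.45 (adjusted p in limma = 0.0882).

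Among 11 tested glycogen genes, 1 fell and none rose. PYGB, the brain form of glycogen phosphorylase, which releases glucose 1-phosphate, was at 28899, 40535 and 17603 normalized counts in controls and at 10152, 4819 and 5404 in depleted samples. All depleted samples were below all controls, with a log2 change of -2.09 ± 0.46 (SE, adjusted p in limma = 0.0332). Of 3 tested gluconeogenic genes, PC fell, the pyruvate carboxylase that makes oxaloacetate in mitochondria. PC was at 2297, 1758 and 4329 in controls and at 885.1, 171.1 and 140.9 in depleted samples, with a log2 change of -3.22 ± 0.68 (adjusted p in limma = 0.0278). Depleted replicate 1 was the highest depleted sample for both PYGB and PC.

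Among 8 tested regulators of glycolysis, 1 fell and none rose, and the median log2 change was -0.92. ARRDC4, an arrestin-like protein known to limit glucose uptake, was at 833.4, 895.2 and 1290 normalized counts in controls and at 123.6, 125.9 and 252.7 in depleted samples. Every depleted sample was far below every control, with a log2 change of -2.64 ± 0.38 (SE, adjusted p in limma = 0.00559). TXNIP, its paralogue with the same known role, was at 14882, 7561 and 23189 in controls and at 5829, 2395 and 6263 in depleted samples, and its log2 change of -1.63 ± 0.53 had a limma adjusted p of 0.120. MYC, a transcription factor known to activate glycolytic genes, had a log2 change of -2.01 ± 0.50 (adjusted p in limma = 0.0530, or 0.0401 after the length and GC correction). HIF1A, the regulated subunit of HIF, was at 17090 in depleted replicate 1 against 5315 and 5382 in the other depleted samples and 4148 to 6056 in controls (adjusted p in limma = 0.477).

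Of 14 HIF targets outside glycolysis, 1 fell and none rose, with a median log2 change of 0.13. The number called was 4 without control replicate 3 and with DESeq2, beside 14.6% and 12.4% of all genes. It was 0 without control replicate 2, depleted replicate 2 or depleted replicate 3. CA12, a membrane carbonic anhydrase, was at 95.3, 239.0 and 634.5 normalized counts in controls and at 22.9, 20.3 and 15.7 in depleted samples. The depleted samples were close together and below all controls, with a log2 change of -3.59 ± 0.67 (SE, adjusted p in limma = 0.0180). VEGFA had a log2 change of 0.01 and ADM of 1.96 (adjusted p in limma = 0.996 and 0.0776). Of the 14 log2 changes 10 were positive and 4 negative, so the list did not move in 1 direction. At an unadjusted limma p under 0.05, 5 passed, beside 20.0% of all genes.

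**Figure D4:**
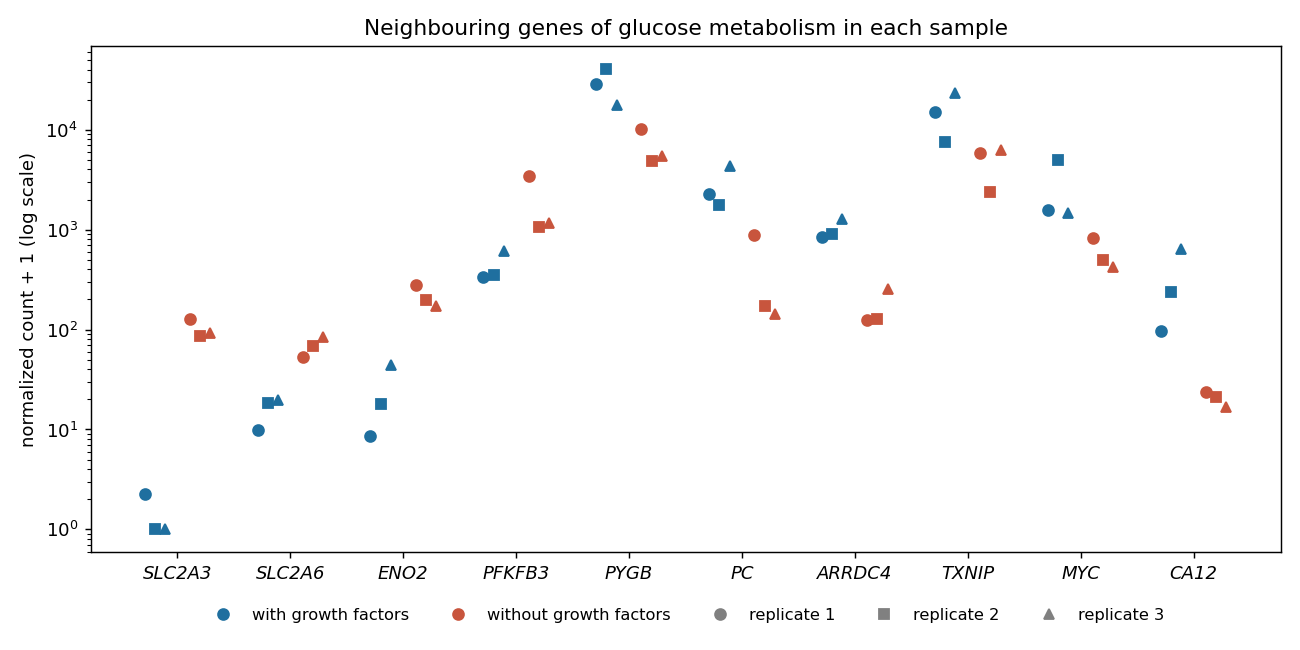
Normalized count + 1 on a log axis for 10 neighbouring genes in each sample, with growth factors in blue and without in red, the marker shape giving the replicate. In all 10 genes the groups are separate, but SLC2A6, PFKFB3, TXNIP and MYC did not pass limma's test, and of these all but PFKFB3 were picked for the plot after their values were seen.

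The number called in each list depended on single samples. Without control replicate 3, 14.6% of all genes were called. In the lists these were 2 of 6 hexose transporters, 3 of 11 other glycolytic enzymes, 3 of 11 glycogen genes and 2 of 8 regulators. They also were 1 of 4 fructose 2,6-bisphosphate genes, 1 of 7 lactate and pyruvate transport genes and 1 of 7 pentose phosphate genes. Without depleted replicate 1, 919 of the 16988 genes tested were called. In the lists these were 2 of 6 hexose transporters, 2 of 11 glycogen genes, 2 of 14 HIF targets, 1 of 7 pentose phosphate genes and 0 of 11 other glycolytic enzymes. Without depleted replicate 2, as without depleted replicate 3, the call was lost in the other glycolytic enzymes, the glycogen genes and the gluconeogenic genes. Over all genes, 453 and 467 were then called. Without control replicate 1, as without control replicate 2, the call was lost in the glycogen and gluconeogenic genes, with 634 and 675 of all genes called.

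The calls of these neighbours differed in how far they held. SLC2A3 and ARRDC4 were called under all 19 alternatives, whereas CA12 lost its call under 3, ENO2 under 4, PC under 6 and PYGB under 6, each with the same direction. ENO2 had a limma adjusted p of 0.0503 without depleted replicate 1, 0.0691 without depleted replicate 2 and 0.0577 without depleted replicate 3. PC and PYGB reached 0.109 and 0.168 in limma without depleted replicate 2, and CA12 reached 0.0735 without depleted replicate 3.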

How the data were processed

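RNA-Seq was taken from 6 MCF10A samples, 3 per condition by the labels. The authors removed ribosomal RNA, prepared stranded libraries for single-end sequencing (100 bases), and counted the hg38 alignments per gene of Gencode v22. The submitters' processing notes name cutadapt 1.6, TopHat2 0.6, HTSeq 0.6, DESeq2 1.8.1 and R 3.2.0. The deposited values are a normalized signal, read counts divided by DESeq2 size factors and not by length. All values (100% within 0.01 read) were whole multiples of 1 read, so reads were recovered. Gencode v44 named 18913 of 19198 genes.

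The main test was limma 3.58.1 in R 4.3.3 (lmFit, eBayes with trend) on log2(normalized count + 1), which understates changes of low genes, for 16988 genes with a mean of at least 10. P-values were adjusted by Benjamini-Hochberg over all of them, and a gene was called at an adjusted p under 0.05 and at least 2-fold. Ratios were tested by exact permutation over samples. Alternatives were pseudocounts of 0.5 and 10, no filter, a mean of at least 50, the same total, quantile normalization, no trend, the replicate block, a length and GC correction, leaving out samples, and edgeR 4.0.16 and DESeq2 1.42.0 on recovered reads. The procedure was tested on simulated data. Figures were drawn with matplotlib 3.10.9 in Python 3.11.15.

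The members and lists were chosen with earlier results of these data known. Named genes are the 10 members, each list gene called or, in a list without calls, that with the largest mean, and the 5 genes most like the members' mean profile, 1 of which is not reported here. SLC2A6, SLC2A12, GPI, TPI1, PGAM1, ADPGK, SLC16A1, SLC16A3, TXNIP, MYC, HIF1A, VEGFA and ADM were named after their values were seen.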

Additional observations from a re-analysis of the deposited data

How the results depend on the processing

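With 3 samples a group, controls differed 1.74 to 3.68-fold in a member and the SE of its log2 change was 0.32 to 0.64, which limits what could be detected. The number of genes called, 1076, was between 453 and 2474 when 1 sample was left out, 2112 with DESeq2, 703 with the replicate block and length and GC correction, and 3253 without control replicate 3 and depleted replicate 1, the last chosen after seeing the data. The members called, 0, were 0 to 1 when 1 sample was left out, 3 without control replicate 3 and depleted replicate 1, and 0 under every other alternative. The genes called in the 10 lists, 6 of 82, were between 2 and 24 when 1 sample was left out. They were 24 without control replicate 3 (14.6% of all genes) and 19 with DESeq2 (12.4%). Without control replicate 3 and depleted replicate 1 they were 29 (19.1% of all genes). With the length and GC correction they were 11, where 1300 genes were called. The replicate block called 967 genes and 0 members. Deviations of same-numbered samples correlated at -0.0726, -0.283 and -0.323, so they shared no positive deviation. These correlations cannot tell whether samples of the same number were handled together. With 1 sample left out, the log2 fold change of ENO1 ranged from -0.80 to 0.14, of HK2 from -0.60 to 0.22 and of PFKP from -0.85 to 0.08, while without control replicate 3 and depleted replicate 1 ENO1 was at -1.29 and HK2 at -0.67. The difference in the log2 ratio of PFKP to PFKL ranged from -0.39 to 0.38 and was 0.02 with the length and GC correction, that of LDHA to LDHB ranged from -0.06 to 0.55 and that of HK2 to HK1 from 0.08 to 0.91. The cause was not tested. The median of all genes moved from -0.03 to between -0.10 and 0.02 under other scalings.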

Other observations

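Across the 6 samples, 4 genes outside the lists had log2 profiles among the closest to the members' mean profile among 10480 candidates, by root mean square difference of centred log2 values. ARF6, a small GTPase of membrane traffic, differed by 0.0637, SLC9B2 by 0.0673, POLD3, a DNA polymerase delta subunit, by 0.0733 and UTP18 by 0.0931, where the median candidate differed by 0.555. The members themselves differed from their mean profile by 0.155 (ALDOA) to 0.740 (SLC2A1). ARF6 was at 3789, 3745 and 1805 normalized counts in controls and at 3228, 2326 and 2560 in depleted samples. All 4 were lowest in control replicate 3, and none passed limma's test (adjusted p = 0.783 to 0.956). Both largely follow from how the genes were chosen, since the members' mean profile was itself lowest in control replicate 3 and no member was called.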
